A study of Rattus norvegicus with 2 samples.

Results

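The probe sets described here are those to which the platform annotation gives more than 1 gene symbol, so that a single value usually stands for several named genes. They were chosen as every probe set of the deposited table whose symbol entry holds at least 2 symbols, without those where any symbol is a histone gene. Of 36685 probe sets in the table, 575 carried several symbols, 19 of these named a histone gene, and the remaining 556 are the subject here. The 556 probe sets fell into 390 distinct sets of symbols. An entry of 2 symbols was held by 461 probe sets and one of 3 or more by 95, up to 15 symbols for the alpha protocadherin cluster. The rule itself used no measured value, though it was set with earlier results of these data known.

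The study compared rat C6 glioma cells, an established cell line, with C6 cells treated with small molecules. The latter are labelled small molecule induced C6 glioma (SMiG). There was 1 array of undifferentiated C6 cells and 1 array of SMiG cells, both of total RNA from cells grown in DMEM with 10% FBS and P/S, with no allele or strain given. For SMiG, its description lists rapamycin, which inhibits mTOR, I-BET151, which blocks BET bromodomains, and forskolin, which raises cyclic AMP. The protocol text attached to both samples instead names CHIR99021 (a GSK3 inhibitor) at 20 µM with forskolin at 100 µM for 35 days, and no choice between the texts was made here. Both groups come from a single cell line. With 1 array per group there was no replicate, so no difference below has an error, a replicate check or a p-value.

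Whole-transcript arrays combine several short probes into 1 value per probe set. A probe reads any transcript that carries its complement, so genes copied from one another, or genes whose exons lie in the same stretch of transcribed DNA, can share a reading. Common arrangements in mammals are processed pseudogenes (copies of a messenger RNA put back elsewhere in the genome), tandem families made by local duplication, and unlike neighbours that share an exon or a transcript. Where an entry names different genes, its value cannot be given to 1 of them, and each probe set is therefore named by its symbols together.

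By their symbols the 556 probe sets were sorted into 8 kinds. In 176, a gene stood with a named copy, a symbol ending in -ps (pseudogene) or in l and a number (a like locus). Another 173 held paralogues, members of 1 gene family, and 132 held unlike genes. There were 25 of a gene with a predicted locus, 22 that list 1 symbol more than once and so name a single gene, 16 of a gene with a microRNA, 7 of predicted loci only and 5 of microRNA copies. Of the 832 gene numbers in these entries, 757 matched RefSeq (rat assembly GRCr8), and at least 2 genes were matched for 491 probe sets.

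The place of the genes in that assembly, which the choice did not use, differed by kind. Where an entry matched more than a pair of genes, any pair could place it: first by different chromosomes, then by overlap, then as direct neighbours. Genes and their named copies lay on different chromosomes for 121 of the 176 probe sets. Unlike genes were direct neighbours, with no other gene between at least a pair of them, for 73 of 132 probe sets, overlapped for 19, and had other genes between them for 34. Only 3 probe sets of unlike genes joined different chromosomes (Sycp3l1 with Fam9cl1, Lrp5 with Tvp23b, and Rtn4 with Rn28s). Of the 16 probe sets of a gene with a microRNA, 15 joined genes that overlap. All 38 pairs of unlike genes with a RefSeq window at both starts lay on the same strand, against 160 of 185 pairs of paralogues and 23 of 84 pairs from entries with a named copy.

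The sequence before each start shows how unlike the loci behind 1 reading can be. For 311 pairs of genes in 1 entry, the RefSeq windows of 250 bases before and 50 bases after each start were searched for shared 12-base words on either strand. Each pair took the kind of its entry, so a pair from an entry with a named copy need not be a gene and its own copy. No word was shared by 35 of the 38 pairs of unlike genes, 27 of the 84 pairs from entries with a named copy and 91 of the 185 pairs of paralogues. The median share of a window's words found in the partner's window was 4.84% for pairs from entries with a named copy and 0.35% for paralogues.

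Cers1 (ceramide synthase 1) and Gdf1 (a TGF-beta family ligand), proteins known to be encoded by a shared transcript, had the same 300-base window. The 250 bases before that common start are shown because the probe set of this pair had the highest difference among unlike genes. They lie on the minus strand at chr16:19146481-19146730 (GRCr8), and capitals mark bases in words shared with the partner.
Cers1 and Gdf1: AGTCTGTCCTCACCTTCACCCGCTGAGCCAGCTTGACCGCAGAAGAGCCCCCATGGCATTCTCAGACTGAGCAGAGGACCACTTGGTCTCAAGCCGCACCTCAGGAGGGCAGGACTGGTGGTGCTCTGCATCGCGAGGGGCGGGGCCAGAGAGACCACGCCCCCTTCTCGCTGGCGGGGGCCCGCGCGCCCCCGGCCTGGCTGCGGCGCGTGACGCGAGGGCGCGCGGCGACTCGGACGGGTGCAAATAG
The alpha-tubulin pair shows the opposite case, and is printed because its shared reading passed 2-fold while that of Tuba1b alone did not. Tuba1a (chr7:131995820-131996069) and Tuba1b (chr7:131972588-131972837) are direct neighbours on the minus strand (GRCr8). Their windows shared 0 words, so no base is in capitals.
Tuba1a: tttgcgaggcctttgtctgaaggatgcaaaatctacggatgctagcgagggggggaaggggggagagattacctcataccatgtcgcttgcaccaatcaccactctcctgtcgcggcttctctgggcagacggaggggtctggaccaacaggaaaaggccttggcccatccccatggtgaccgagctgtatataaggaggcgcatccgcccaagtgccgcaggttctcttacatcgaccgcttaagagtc
Tuba1b: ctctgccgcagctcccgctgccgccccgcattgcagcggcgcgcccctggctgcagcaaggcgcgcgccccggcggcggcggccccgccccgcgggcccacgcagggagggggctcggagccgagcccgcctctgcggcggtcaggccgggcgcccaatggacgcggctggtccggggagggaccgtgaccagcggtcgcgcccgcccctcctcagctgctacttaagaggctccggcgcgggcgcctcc
Between these cases stood Actg1, which encodes cytoplasmic gamma-actin, and its copy Actg1l1 on another chromosome. Their windows shared 50 bases after the start and 0 bases before it.

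Entries with a microRNA name a further arrangement, a short hairpin inside a longer gene. RefSeq gave a mature sequence for 20 of the 23 microRNA symbols, with 26 mature names and 26 different seeds, so no seed was shared. Shown are microRNAs whose probe set is described below, with the seed (bases 2 to 8) in capitals and GRCr8 positions. The hairpins of Mir295-1 and Mir295-2 were identical, and 1 of their positions is given.
rno-miR-2985 (with Gria2, chr2:168254526-168254547, minus strand): uGUUAUAGuaucccaccuaccc
rno-miR-671 (with Chpf2, chr4:11473205-11473225, minus strand): uCCGGUUCucagggcuccacc
rno-miR-3594-3p (with Cep131 and Mir3562, chr10:105845832-105845853, minus strand): cACACCGCcucugcccgcuagu
rno-miR-935 (with Cacng8, chr1:74671223-74671245, minus strand): cCAGUUACcgcuuccgcuaccgc
rno-miR-349 (with Plxnb2, chr7:122122966-122122987, minus strand): cAGCCCUGcugucuuaaccucu
rno-miR-632 (with Zfp207, chr10:65883626-65883644, plus strand): gUGUCUGUuuccugccgga
rno-miR-295-5p (Mir295-1 and Mir295-2, chr1:74878019-74878041, minus strand): aCUCAAAUguggggcacacuucu

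Values are log2 expression, and a difference is SMiG minus C6, so a difference of 1 is 2-fold. Olfactory and vomeronasal receptor probe sets of 1 symbol (1360) were taken as silent, and the 95th percentile of their values set a floor of 4.88 in C6 and 4.97 in SMiG. Their differences had an SD of 0.32. A probe set above the floor on at least 1 array was called detected, a rule that favours a difference where only 1 array is above it. Of the glial markers 4 of 6 were above the floor: Gfap went from 6.05 to 5.48, S100b from 9.67 to 10.87, Nes from 8.74 to 8.59, and Vim read 12.74 on both arrays, with Slc1a3 and Aqp4 below it. So were 4 of 5 oligodendrocyte lineage markers, 2 of 4 neuronal, 1 of 5 microglial and leukocyte, 0 of 1 endothelial and 2 of 3 fibroblast and mural markers. Past 2-fold were S100b, Sox10 (1.01) and Cnp (1.52) of the oligodendrocyte list, and Col1a1 (-1.15) and Pdgfrb (-2.36) of the mural list. Their part in the results below was not tested. In bulk RNA, fewer cells of a type and less RNA per cell cannot be told apart.

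Of the 556 probe sets, 331 were detected (59.5%), beside 59.8% of the 18511 probe sets with 1 symbol. At 2-fold, 8 were higher in SMiG (2.42% of those detected) and 9 were lower (2.72%). Among detected 1-symbol probe sets, 3.21% were higher and 6.53% lower. The share higher was near that background and the share lower was below it, with no test of either gap. The median difference was 0.00 over the detected probe sets and 0.02 over all 556, beside -0.01 and 0.05 for 1-symbol probe sets.

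The kinds differed in sign. Of 143 detected probe sets of a gene with a named copy, 49 were above 0 and 94 below it, with a median of -0.08 (-0.06 over all 176). Of 92 detected probe sets of unlike genes, 60 were above 0 and 31 below it, with a median of 0.21 (0.14 over all 132). Paralogues had 50 of 173 detected, 31 above 0 and 18 below, with a median of 0.14 (0.08 over all 173). These medians have no test. The detected probe sets came from 109 sets of symbols for copies, 51 for unlike genes and 43 for paralogues, so some sets were counted more than once. Of 11061 detected 1-symbol probe sets, 5412 were above 0 and 5564 below it. The kinds also differed in level: 35 detected copies and 3 detected readings of unlike genes had a mean level of 10 or more. Among probe sets with a mean level from 6 to 7, the median difference was 0.26 for 27 readings of unlike genes, 0.01 for 28 copies and -0.02 for 2389 1-symbol probe sets. From 7 to 8 it was 0.20 for 13 readings of unlike genes and -0.20 for 21 copies. Below 6 it was 0.13 for 32 readings of unlike genes, -0.05 for 15 copies and 0.05 for 2885 1-symbol probe sets. From 8 to 9 no such contrast was seen, at -0.11 for 13 readings of unlike genes and -0.09 for 23 copies. From 9 to 10 the medians were 0.23 for 4 readings of unlike genes and -0.10 for 21 copies. At 10 or more they were -0.03 for 3 and -0.10 for 35.

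**Figure D1:**
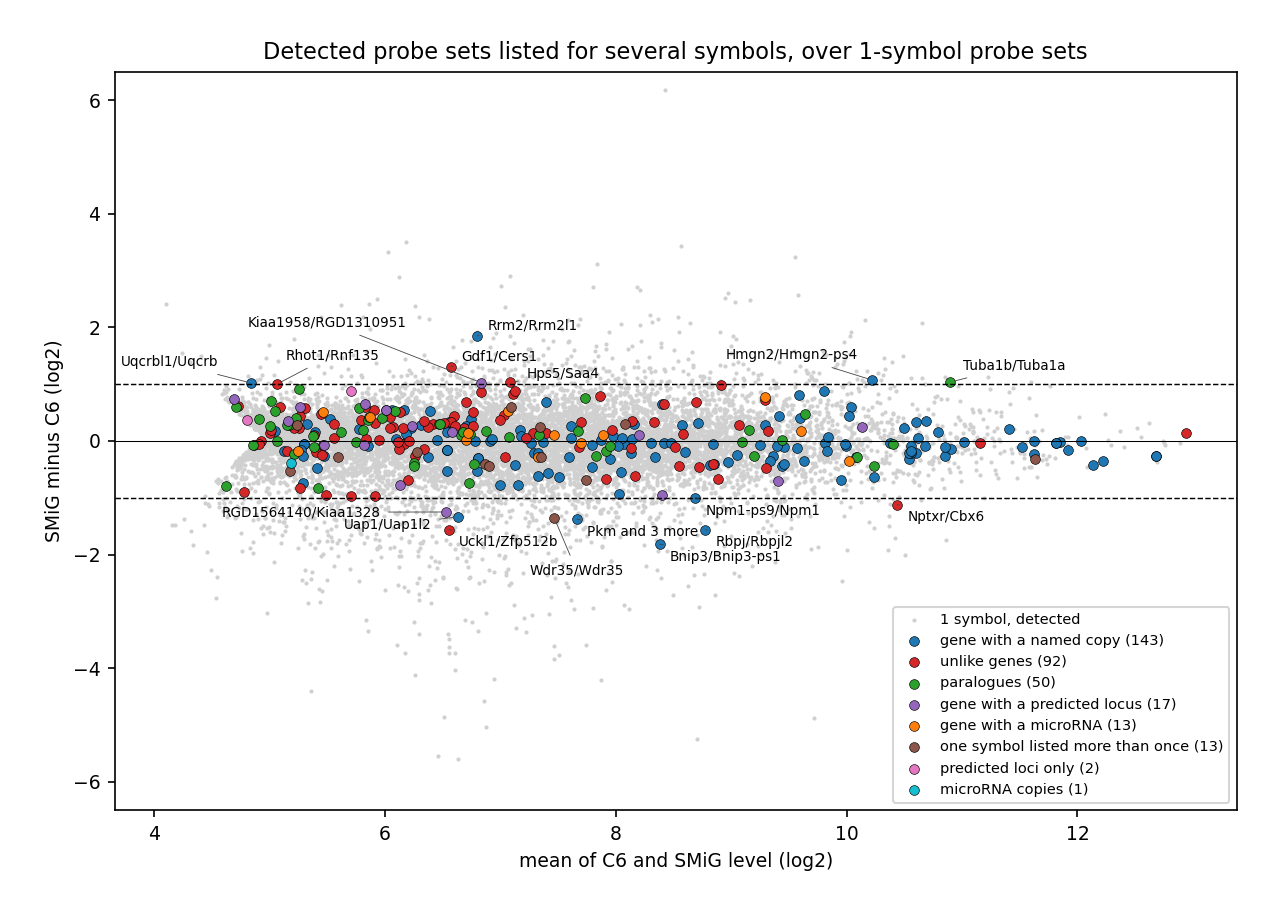
Mean log2 level of the 2 arrays (horizontal) against the log2 difference SMiG minus C6 (vertical) for the 331 detected probe sets with several symbols, coloured by kind, over detected 1-symbol probe sets in grey. Dashed lines mark 2-fold, and the labelled probe sets beyond them run from Bnip3 with Bnip3-ps1 at -1.82 to Rrm2 with Rrm2l1 at 1.85.

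The highest difference was in the reading shared by Rrm2, the small subunit of ribonucleotide reductase that makes deoxynucleotides, and its copy Rrm2l1. It read 5.87 in C6 and 7.72 in SMiG, a difference of 1.85 (3.61-fold). Both probe sets of Rrm2 alone were also higher in SMiG, by 1.33 and 0.78. The reading of Gdf1 and Cers1, whose common start is printed above, came next at 5.92 in C6 and 7.23 in SMiG (1.31, 2.48-fold). Hmgn2, a nucleosome-binding protein, shared both of its probe sets with Hmgn2-ps4. These went from 9.68 to 10.76 (1.07) and from 9.37 to 10.24 (0.87), so only the first passed 2-fold.

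The reading of Tuba1b and Tuba1a, alpha-tubulins of microtubules, was 10.38 in C6 and 11.42 in SMiG (1.04, 2.05-fold). The probe set of Tuba1b alone differed by 0.03, and Tuba1a had 0 probe sets of its own. The shared and the own difference were thus 1.005 apart. The SD of the silent probe sets is of single differences near the floor, so it gives no error for this gap. Hps5, a protein of lysosome-related organelle formation, with Saa4, a serum amyloid A, went from 6.57 to 7.60. Of the 7 probe sets of Hps5 with Saa4 only 2 were detected, and the other detected one was at 0.32. Kiaa1958 with RGD1310951, an entry that matched only 1 RefSeq gene, went from 6.32 to 7.35.

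For the other 2 higher readings C6 was below the floor. Uqcrbl1 with Uqcrb, a subunit of respiratory complex III, read 4.32 in C6 and 5.35 in SMiG, which is at least 1.38-fold against the floor. The probe set of Uqcrb alone went from 5.16 to 6.09 (0.93). Rhot1, a mitochondrial transport GTPase, with Rnf135, a ubiquitin ligase, read 4.56 in C6 and 5.57 in SMiG, at least 1.61-fold. Both count as past 2-fold by their measured values and not by their bound.

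The lowest difference was in the reading of Bnip3, a mitochondrial BCL2 family protein of mitophagy, and Bnip3-ps1. It read 9.29 in C6 and 7.47 in SMiG, a difference of -1.82 (3.52-fold lower). Rbpj, the DNA-binding partner of Notch, with Rbpjl2 went from 9.56 to 7.99 (-1.56). Uckl1, a uridine-cytidine kinase relative, with the zinc finger gene Zfp512b went from 7.33 to 5.77 (-1.56). Both arrays were above their floors in all 3 readings. None of them had a detected 1-symbol probe set of the same genes to be set against.

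Pkm, a pyruvate kinase, shared a reading with Pkm-ps20, Pkml1 and RGD1561179 that went from 8.35 to 6.97 (-1.38, 2.60-fold lower). The entry that repeats Wdr35, an intraflagellar transport protein, went from 8.15 to 6.79 (-1.36). Uap1, which makes UDP-N-acetylglucosamine, with Uap1l2 went from 7.30 to 5.96 (-1.34). Both arrays were again above their floors. RGD1564140 with Kiaa1328, an entry that matched only 1 RefSeq gene, was at -1.25. Nptxr (a neuronal pentraxin receptor) with Cbx6 (a Polycomb protein) was at -1.12, and Npm1-ps9 with Npm1 (nucleophosmin) at -1.001. The probe set of Npm1-ps9 alone went from 7.19 to 6.72 (-0.48).

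Just inside the threshold stood Retreg1 with Zfp622 at 0.99. On the lower side Jmjd7 with Pla2g4b, Decr2 with Nme4 and Rab11fip3, Paics with LOC100359876, and Btbd8 with C14h1orf146 and Lpcat2b each had a reading at -0.96. The other probe set of Jmjd7 with Pla2g4b was at -0.14. The 5 detected of 8 probe sets of Btbd8 with C14h1orf146 and Lpcat2b ran from -0.96 to 0.37, 4 of them below 0. Nearest on the outside were Npm1-ps9 with Npm1 at -1.001 and Rhot1 with Rnf135 at 1.003.

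By family, ribosomal proteins had 31 of 32 probe sets detected and 0 past 2-fold. Of the 31, 22 were below 0, with a median of -0.10 beside -0.09 for 173 detected 1-symbol probe sets of the same family. All 4 detected readings of Rpl12 with its copies were below 0. One of these, with Rpl12a-ps1, went from 7.39 to 6.61 (-0.78), and another, with Rpl12-ps1 and Rpl12l2, from 11.74 to 11.51 (-0.23). The 9 readings above 0 included Rps18 at 0.36 and 0.34, Rps15a at 0.43, Rps26 at 0.22 and Rps10 at 0.22, each with its like loci. Other small-subunit proteins were below 0, with Rps7 and Rps7-ps23 at -0.17 and -0.11, or on both sides, with Rps25 and Rps25l3 at -0.04 and 0.08. The highest was Rpl38 with Rpl38-ps8 and Rpl38-ps9, which went from 5.78 to 6.34 (0.55). The reading of Rpl31 with Rpl31l10 and Rpl31l2 was at -0.16.

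Both probe sets of Gapdh, the glycolytic dehydrogenase, with Gapdh-ps118 and Gapdhl10 had the same values, 12.81 in C6 and 12.55 in SMiG (-0.26). Those of Actg1 with Actg1l1 went from 12.34 to 11.93 (-0.42) and from 12.40 to 12.04 (-0.36). The 3 probe sets of Ppia (cyclophilin A) with Ppial4d went from 11.84 to 11.80, from 11.86 to 11.84 and from 12.03 to 12.03. These are genes often used as references, and only the Actg1 readings differed by more than the SD of the silent probe sets. That SD comes from probe sets mostly below the floor. It gives no error at these high levels and does not show that the other readings were unchanged. Of 21 such abundant or reference genes looked up, 7 were in a shared entry, and Gapdh, Actg1, Hmgn2, Ppia, Pkm and Tuba1a had 0 probe sets of their own.

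All 5 glycolysis readings were detected, 4 of them below 0, with a median of -0.26. Beside Pkm and Gapdh, Tpi1 (triosephosphate isomerase) with Tpi1l1 and Tpi1l2 went from 10.98 to 10.73, and Eno1 (enolase) with Eno1-ps1 from 6.12 to 6.34. The 19 detected 1-symbol probe sets of the family had a median of -0.38, and 4 of 19 were lower at 2-fold. Mitochondrial respiration and import had 11 of 11 detected, 7 above 0, with a median of 0.27 beside -0.03 for 242 1-symbol probe sets. Ndufs5-ps2 with Ndufs5, of complex I, went from 7.04 to 7.74, and Cox7a2l2 with Cox7a2, of cytochrome oxidase, from 9.73 to 10.33. Slc25a5 with Slc25a6, the ADP/ATP carriers, went the other way, from 9.33 to 9.07.

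Chromatin and nuclear proteins had 21 of 23 probe sets detected, 15 of them below 0, with a median of -0.31 beside -0.02 for 120 1-symbol probe sets. The set includes the Rbpj, Npm1 and Hmgn2 readings given above. The repeated entry of Epc1 (a NuA4 complex subunit) was at -0.70 and Tada3 (a histone acetyltransferase adaptor) with Tada3lb at -0.62. Ptmal5 with Ptma (prothymosin alpha) read 11.63 and 11.62. The BCL2 and mitophagy family had 5 of 6 detected and a median of -0.56, beside 0.10 for 9 detected 1-symbol probe sets. With only entries that match 2 or more RefSeq genes, which leaves out the Bnip1 readings, the median was 0.11. Beside Bnip3, both readings of Bnip1 (a SNARE with a BH3-like region) with Bnip1l1 were below 0, at -0.78 and -0.56. Both of Bax, the pore-forming member, with LOC681314 were above 0, at 0.61 and 0.11.

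Enzymes of nucleotide, amino acid and lipid synthesis had 10 of 10 detected, 8 below 0, with a median of -0.28. Of 24 detected 1-symbol probe sets of the family 14 were below 0 (median -0.15). Rrm2 was above 0, and Paics, of purine synthesis, with LOC100359876 went from 8.88 to 7.92. Smox (spermine oxidase) with RGD1564480 read 4.31, below the floor, and 5.06, at least 1.13-fold. In kinases, phosphatases and signalling 7 of 8 detected readings were below 0 (median -0.35), among them Nme2, a nucleoside diphosphate kinase, with Nme2-ps8, from 10.29 to 9.60. Here 136 of 253 detected 1-symbol probe sets were below 0 (median -0.04). All 5 readings of GTPases and G proteins, from 4 sets of symbols, were below 0, among them both of Rab5a, an early endosome GTPase, with Rab5al1 at -0.64. The 144 detected 1-symbol probe sets of that family had 75 above 0 and 69 below it (median 0.03). All 3 of translation factors were below 0, with Eif2s3 and Eif2s3y, of initiation factor eIF2, at -0.44, as were 42 of 64 detected 1-symbol probe sets (median -0.13).

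In the cytoskeleton family 9 of 19 readings were detected. Tubb4b with Tubb4a, beta-tubulins, went from 9.39 to 9.88 and Dstn, which severs actin filaments, with Dstnl1 from 9.19 to 9.63. Cfl1 (cofilin) with Cfl1l1 read 11.83 and 11.80. Autophagy and membrane traffic had 13 of 13 detected with a median of 0.08. Its ends were Chmp1b with Chmp1b2, of the ESCRT-III complex, from 7.10 to 6.36 (-0.73), and Gabarapl2 with Gabarapl3, of autophagosomes, from 7.36 to 8.11 (0.76). The probe set of Chmp1b alone was at 0.15. RNA binding and splicing had 14 of 14 detected and a median of 0.01, with Chtop, of messenger RNA export, and Chtopl1 from 8.07 to 8.73. In the ubiquitin family, the probe set that lists Peds1 before Ube2v1l1 and Ube2v1 (a ubiquitin-conjugating enzyme variant) went from 9.18 to 9.99, while 2 that list Ube2v1 first were at -0.06 and -0.03.

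**Figure D2:**
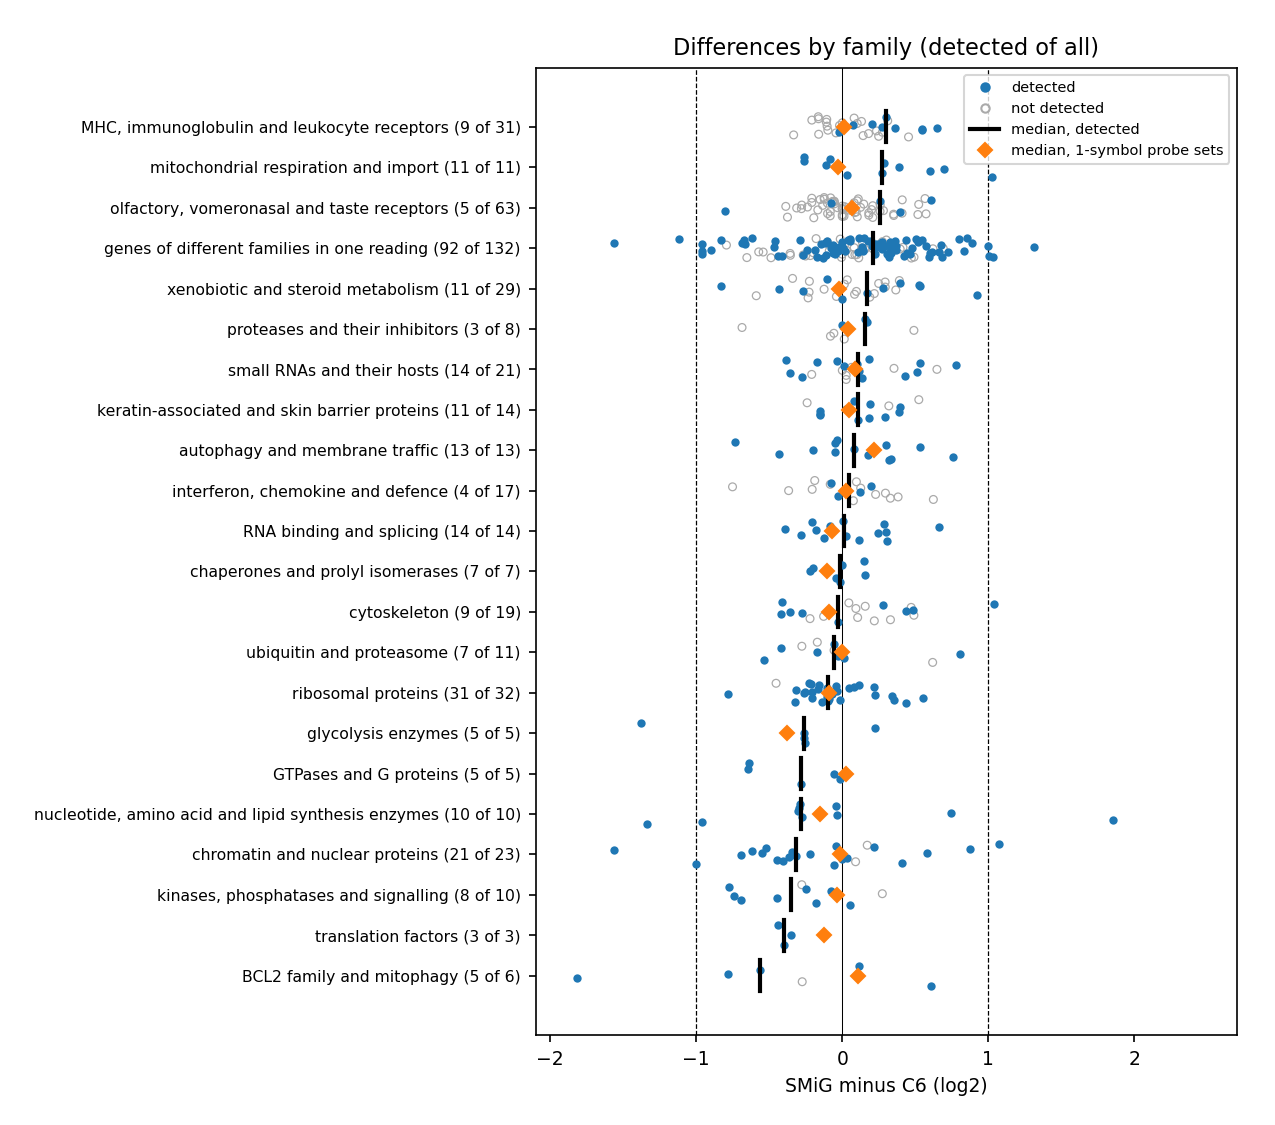
Log2 difference SMiG minus C6 of each probe set, by family, for families with 3 or more detected readings. Filled points were detected, open points were not, bars are medians of detected readings and diamonds are medians of detected 1-symbol probe sets; the medians run from -0.56 (BCL2 and mitophagy) to 0.30 (MHC, immunoglobulin and leukocyte receptors).

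Families known mainly from other tissues were mostly below the floor. Of 63 readings of olfactory, vomeronasal and taste receptors 5 were detected, and the floor itself was set on 1-symbol receptors of this kind. The 4 globin readings, the 5 of lipocalins and secretoglobins and the 2 of prolactin relatives were not detected. Of 29 readings of xenobiotic and steroid metabolism 11 were detected and 0 passed 2-fold. Nat1 with Nat2, arylamine acetyltransferases, read 4.79 in C6, below the floor, and 5.71 in SMiG, at least 1.78-fold (measured difference 0.92). Acot3 with Acot4, acyl-CoA thioesterases, went from 5.83 to 5.004 in the probe set that lists Acot3 first and from 4.78, below the floor, to 5.31 (at least 1.35-fold) in the other.

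Keratin-associated and skin barrier proteins had 11 of 14 readings detected, from 7 sets of symbols, beside 17 of 42 1-symbol probe sets of the family. Their median was 0.11 and 0 passed 2-fold. Their levels ran from 5.77 to 7.13 in C6 and from 6.11 to 7.27 in SMiG. Of MHC, immunoglobulin and leukocyte receptor readings 9 of 31 were detected, 8 of them above 0 (median 0.30, and 0.10 over all 31). The detected 1-symbol probe sets of the family, 98 of 311, had a median of 0.01. The 9 came from 6 sets of symbols, and 4 of them were entries of Travl2, a T cell receptor alpha variable gene, with LOC688340, at 0.36, 0.54, 0.54 and 0.65. A pair of these had the same values, 5.73 in C6 and 6.28 in SMiG. The class I genes RT1-CE1 and RT1-CE12 shared a reading of 9.05 in C6 and 9.25 in SMiG. The Fc receptor genes Fcgr2a and Fcgr2al1 shared one of 7.38 and 7.35. In the microglia and leukocyte list, Ptprc, Aif1, Itgam and Cx3cr1 were below the floor on both arrays, from 2.99 to 4.23 in C6 and from 2.76 to 3.58 in SMiG, and P2ry12 went from 4.46 to 5.32.

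The probe sets of a gene with a microRNA had 13 of 16 detected, 9 above 0, with a median of 0.11. Gria2, an AMPA receptor subunit, with Mir2985 went from 8.91 to 9.68 (0.78). Chpf2, of chondroitin synthesis, with Mir671 went from 6.80 to 7.33, Cep131 (a centrosomal protein) with Mir3594 and Mir3562 from 5.21 to 5.72, and Cacng8 (an AMPA receptor auxiliary subunit) with Mir935 from 5.66 to 6.09. Plxnb2, a semaphorin receptor, with Mir349 went from 9.51 to 9.69. At the lower end Zfp207 with Mir632 went from 10.20 to 9.84 (-0.36). These values cannot be divided between a hairpin and its host transcript, so the mature sequences printed above have no reading of their own here. Of the 5 readings of microRNA copies only that of Mir151 and Mir151b was detected, at 5.38 and 4.99. Both of Mir295-1 and Mir295-2 read 4.81 and 4.84, below the floors.

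**Figure D3:**
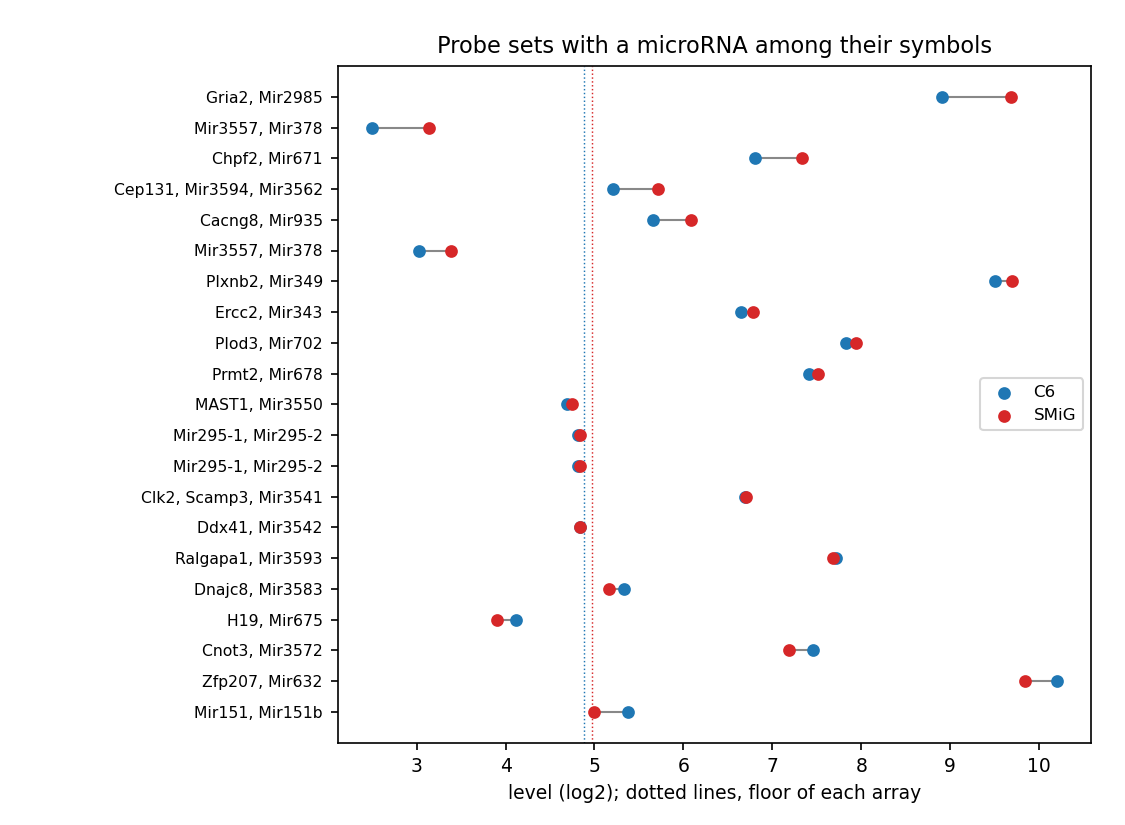
Log2 level in C6 (blue) and SMiG (red) of the 21 probe sets that name a microRNA, ordered by their difference, with the floors of 4.88 and 4.97 as dotted lines. Gria2 with Mir2985 is at the top, from 8.91 to 9.68, and 14 of the 21 lie above a floor.

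Where several probe sets carried the same symbols, their differences could be set against each other. There were 94 such sets of symbols, 62 of them with at least 2 detected probe sets. The gap was taken between the highest and the lowest detected probe set. Its median was 0.61 for 27 sets of unlike genes, 0.12 for 26 sets with a named copy and 0.22 for 7 sets of paralogues. The widest of the 26, at 0.86, was Ube2v1 with Ube2v1l1, an entry that also names Peds1. A gap of 1 or more was found in 6 of 27, 0 of 26 and 1 of 7, the last being Acot3 with Acot4, where 1 value is below the floor. Readings on both sides of 0 were found in 10 of 27, 7 of 26 and 3 of 7. These counts have no test.

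The widest gaps were in neighbours whose probe sets list the symbols in opposite order. Uckl1 with Zfp512b was at -1.56 with Uckl1 first and at 0.51 with Zfp512b first, a gap of 2.08. Nptxr with Cbx6 went from 10.997 to 9.88 with Nptxr first and from 7.46 to 8.26 with Cbx6 first. Srprb, of the signal recognition particle receptor, with Tf, transferrin, went from 8.47 to 7.85 with Srprb first and from 6.41 to 7.26 with Tf first. The same symbols thus had opposite readings, and the annotation does not say which gene each probe set reads.

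Man2b2, an alpha-mannosidase, with Mrfap1 was at 0.83 with Man2b2 first (6.69 to 7.52) and at -0.03 with Mrfap1 first (11.17 to 11.14). The 4 probe sets of Decr2, Nme4 and Rab11fip3 ran from -0.96 to 0.47, and the 3 detected of Rhot1 and Rnf135 from -0.44 to 1.003. In other loci the probe sets shared a sign. All 4 of Retreg1, a receptor of endoplasmic reticulum autophagy, and Zfp622 were above 0, from 0.22 to 0.99. So were the 5 detected of 7 of Tctn2, of the ciliary transition zone, and Atp6v0a2, a proton pump subunit, from 0.11 to 0.72. Both of Trip11, a Golgi protein, and Fbln5 (fibulin-5, of elastic fibres) were below 0, at -0.83 and -0.67.

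**Figure D4:**
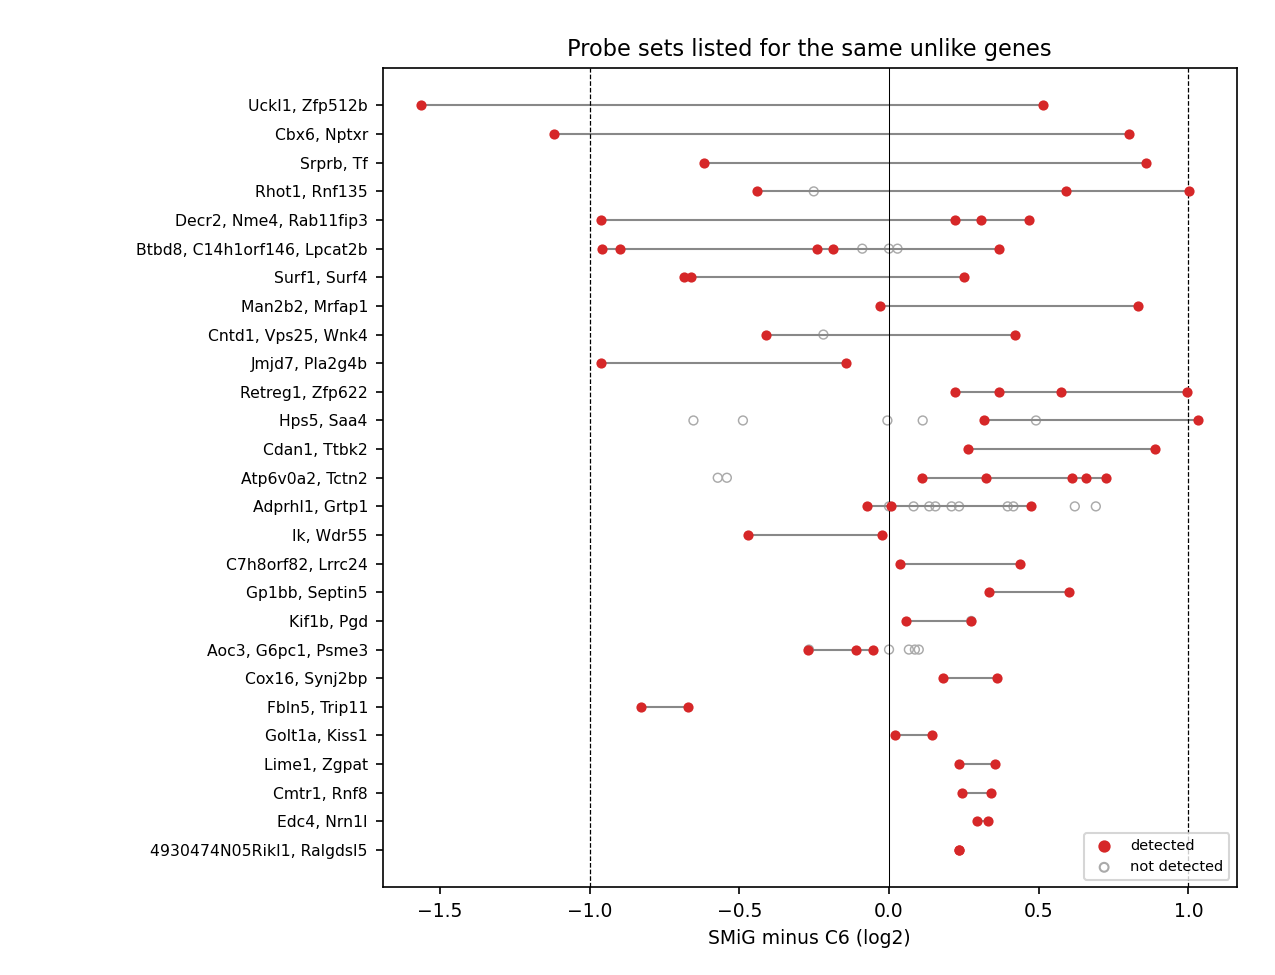
Log2 difference SMiG minus C6 of every probe set of the 27 sets of unlike genes with at least 2 detected probe sets; lines join the lowest and highest detected readings, and open points were not detected. The top lines, for Uckl1 with Zfp512b and for Cbx6 with Nptxr, cross 0 over gaps of 2.08 and 1.92.

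Snrpn and Snurf, proteins encoded by a shared imprinted transcript, were with Cers1 and Gdf1 the only 2 of 38 pairs of unlike genes whose RefSeq windows overlap. Their reading went from 6.36 to 7.04 (0.68), and that of Snurf with Snurf-ps2 from 8.01 to 8.30 (0.30). Rtn4, a reticulon of the endoplasmic reticulum, with Rn28s, the 28S ribosomal RNA, read 12.86 in C6 and 13.01 in SMiG. The probe set of Rtn4 alone went the other way, from 10.19 to 9.91 (-0.28).

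For 71 of the 331 detected probe sets, at least 1 of the symbols also had a detected 1-symbol probe set of its own. The median absolute gap between the shared difference and the mean of the own differences was 0.21. It was 1 or more for 3 of 71, and the signs were opposite for 19 of 71. Across the 71 probe sets Pearson's r was 0.64, a description over points that share the same arrays. For the 47 from entries with a named copy the median gap was 0.17, and the own probe set could be that of the gene or of the copy. The 3 widest were Kmt5a, a histone H4 methyltransferase, with Kmt5al3 (-0.45 beside 0.60), Or2v2c with Or2v2 and Or2v2b, olfactory receptors (-0.80 beside 0.22), and the alpha-tubulins (1.04 beside 0.03). The 0.60 was read by the probe set of Kmt5al3 alone. The Or2v2 entry read 5.02 in C6 and 4.22 in SMiG, below the floor, so that it is only at least 1.04-fold lower and its gap has no bound. For the other 260 detected readings no such comparison could be made.

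**Figure D5:**
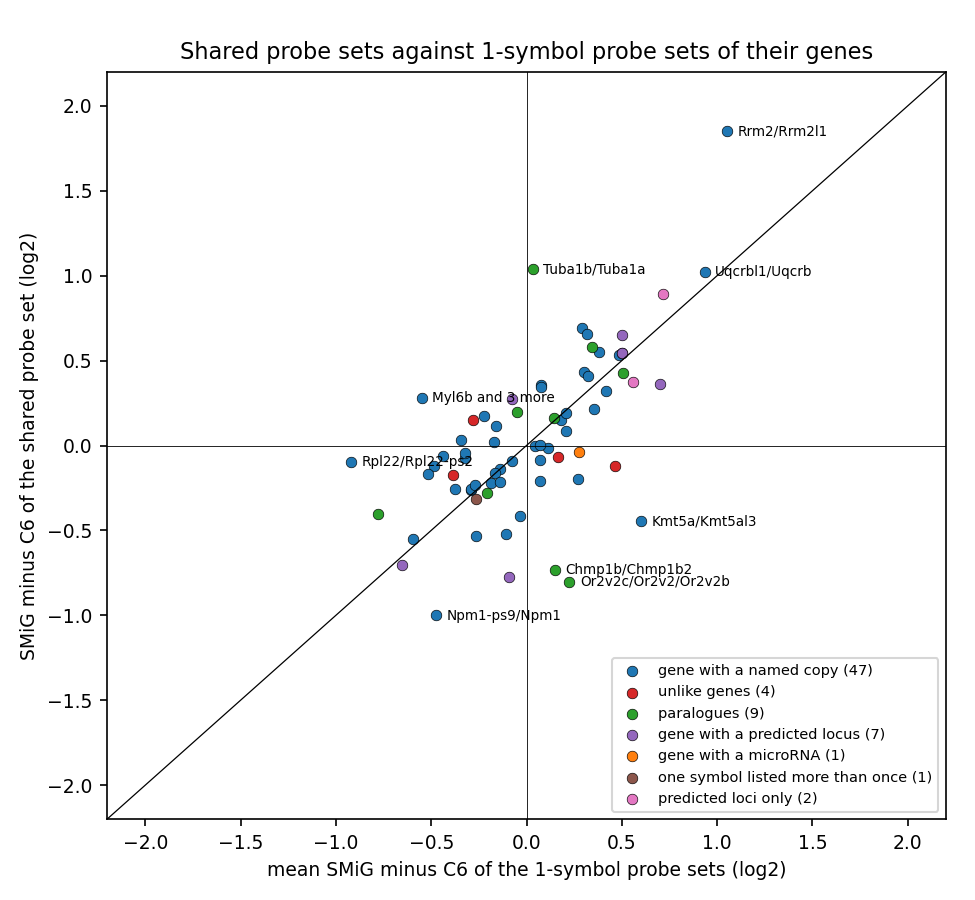
Log2 difference SMiG minus C6 of 71 shared probe sets (vertical) against the mean difference of the detected 1-symbol probe sets of the same genes (horizontal), coloured by kind, with the line of equality. Rrm2 with Rrm2l1 lies at 1.85 and Tuba1b with Tuba1a at 1.04 on the vertical axis, both above the line.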

How the data were processed

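Total RNA of 1 C6 and 1 SMiG sample was made into biotin-labelled sense cDNA for whole-transcript arrays, per the labels' protocols. The authors deposited 1 value per probe set and array, taken here as log2 expression. The log base was read from the values, which reach 13.1, above 11.1, the natural log of the highest 16-bit value; how the signals were background-corrected, summarised and normalized was not stated in these sources. No further scaling was applied. Symbols came from the platform annotation, which gave 18511 probe sets 1 symbol and 17599 none. RefSeq tables (GRCr8) gave gene order, promoter windows and mature microRNAs.

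Families were set by symbol patterns, extended by symbols alone; members and lists were chosen with earlier results of these data known. The probe sets to be named were the 12 highest and 12 lowest detected, the 4 widest differences and 2 highest levels of each family with 3 or more detected, those holding 21 listed reference genes, and any in a family of 10 or fewer. Others, such as Snrpn with Snurf, Srprb with Tf, Man2b2 with Mrfap1, Tctn2 with Atp6v0a2, Trip11 with Fbln5 and the microRNA entries, were chosen after their values were seen. A fold against a reading below the floor is a bound, the brighter value over that array's floor. Of the 556, 21 probe sets shared both values with another (10 readings) and were counted as deposited. With 1 array per group no test was run, and the number of arrays limits the precision. Scripts (Python 3.11.15, numpy 2.4.6, pandas 2.3.3, statsmodels 0.14.6) were tested on simulated data. Alternatives changed the floor (99th percentile or none), the scaling (median centring, a lowess trend of span 0.3, quantile normalization), the fold (1.5 or 4), values below the floor, and which probe sets were counted.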

Additional observations from a re-analysis of the deposited data

How the results depend on the processing

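No paired analysis was possible because each group was 1 array, and no replicate could be left out. A value counted as moved when it shifted by over 0.32, the SD of silent differences, and a count when it shifted by over 1.5 times. Detected readings numbered 331, and 556 with no floor. The 8 higher readings became 5 with probe sets of the same symbols averaged, 35 at 1.5-fold and 0 at 4-fold. The 9 lower became 33 at 1.5-fold and 0 at 4-fold. The median of detected readings lay between -0.01 and 0.05 under its 11 alternatives, of which 2 (without entries that repeat 1 symbol, and same values counted once) were chosen after seeing the data. Of 19 family medians, that of BCL2 and mitophagy moved from -0.56 to 0.11 with only entries that match 2 or more RefSeq genes, and to -0.22 with readings of unlike genes counted in each family they name. Under the latter, that of GTPases and G proteins moved from -0.28 to 0.10. That of xenobiotic and steroid metabolism moved from 0.17 to -0.27 with the floor at the 99th percentile. These settings change which readings a median rests on. Averaging probe sets of the same symbols joins readings as far apart as -1.56 and 0.51 (Uckl1 with Zfp512b). It is not in the next count. With each probe set kept separate, 3 of the 17 readings past 2-fold came inside that threshold under some setting. Npm1-ps9 with Npm1 reached 0.98 in size (centring, lowess, quantile), Rhot1 with Rnf135 0.68 (lowess, quantile, values raised to the floor) and Uqcrbl1 with Uqcrb 0.47 (lowess, values raised to the floor). With 1 array per group, no difference can be set against array-to-array error, and signal near the floor understates change.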
